A study of Oryctolagus cuniculus with 6 samples.

Results

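The genes of G1/S entry and DNA replication were followed in injured facial nerves of rabbits with and without an iodine-125 (I-125) seed. The set held 39 genes, chosen by symbol for their role: 15 act in origin licensing and firing, 15 at the replication fork, 4 in nucleotide supply and 5 in E2F and cyclin control. Of these, 36 were listed among the 17396 genes of the files, and all 36 passed the filter on low counts. POLD1, UHRF1 and CHAF1A were not analysed here. The FNI (facial nerve injury) group held 3 wild-type male Japanese white rabbits of 3 to 4 months whose facial nerve trunk had been cut and which received no seed. The FNI+I-125 group held 3 wild-type rabbits of the same sex, breed and age with the same transection and an I-125 seed of 0.8 mCi placed beside the nerve. Nerves of both groups were taken on day 14, with 1 library per rabbit. Both groups carry the injury, so the comparison concerns the seed on top of transection, and no inactive seed is described for the FNI group. Libraries were made from whole nerve tissue, in which fewer cells of a type and less RNA per cell cannot be told apart.

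Cells commit to division before the passage from G1 to S phase. Cyclin-dependent kinases, cyclin E with CDK2 among them, release E2F transcription factors from the retinoblastoma protein, and E2F switches on genes for DNA synthesis. Origins are marked by the origin recognition complex, CDC6 and CDT1 load the MCM2 to MCM7 helicase, and CDC45 and the GINS complex then activate it. Polymerases, the sliding clamp PCNA and its loader RFC copy the DNA while ribonucleotide reductase, thymidylate synthase and thymidine kinase supply nucleotides. In a cut nerve, dedifferentiated Schwann cells, macrophages, fibroblasts and endothelial cells can all divide, and ionising radiation is known to slow passage through S phase by checkpoints.

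Total counts ran from 16031151 to 16798012 per library, and 14003 genes were tested. Levels are given as CPM, a gene's counts as a share of the library after TMM scaling between libraries. CPM values are not per length, so levels are compared between libraries and not between genes. Differences are log2 fold changes of FNI+I-125 over FNI, with standard errors (SE). The lowest count of any of the 36 genes in a library was 5 and the median was 121, so the rarest of them rested on few reads. Across genes, which are not independent replicates, log2 CPM of FNI replicate 3 correlated with the other FNI libraries at a Pearson's r of 0.897 and 0.908, against 0.972 between FNI replicates 1 and 2. For the replication genes FNI replicate 3 and FNI+I-125 replicate 1 stood apart. FNI replicate 3 was the lowest library for 30 of the 36 genes, where it was the lowest for 31.6% of all genes tested. FNI+I-125 replicate 1 was the highest for 31 of the 36, where it was the highest for 24.2% of all genes tested.

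Most of the replication genes stood at higher levels in the nerves with a seed, by amounts that did not pass the test adjusted over all genes. Of the 36 genes, 33 had a positive log2 fold change, against 51.1% of all genes tested, and the median was 0.71, against 0.01 over all genes. At an adjusted p under 0.05 with a |log2 fold change| of 1.5 or more, edgeR's quasi-likelihood test called 0 of the 36, as it did 0% of all genes, and the smallest adjusted p among them was 0.280. At an unadjusted p under 0.05, 8 of the 36 (E2F2, RRM2, CLSPN, CDC6, CCNE1, CHAF1B, TYMS and PCNA) were higher with the seed, as were 9.23% of all genes tested. No gene of the set was lower at that level, where 7.73% of all genes were. The count of 8 became 2 without FNI replicate 1, where 6.2% of all genes were higher at that level, and 2 without FNI+I-125 replicate 1, where 6% were. It became 4 without FNI replicate 2, against 7.99% of all genes, and 4 without FNI replicate 3, against 6.27%. It was 7 without FNI+I-125 replicate 2, against 6.02%, and 9 without FNI+I-125 replicate 3, against 8.19%. With DESeq2 in place of edgeR, 13 were higher at an unadjusted p under 0.05, against 11.5% of all genes, and 2 of them, RRM2 and E2F2, passed the adjusted p and fold criteria, as did 2.85% of all genes. With limma-voom, 5 were higher at the unadjusted p, against 9% of all genes, and 0 passed the adjusted one. For 18 of the 36 genes every FNI+I-125 library lay above every FNI library, against 14.8% of all genes, and for 0 did every FNI+I-125 library lie below, against 12.3%.

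**Figure D1:**
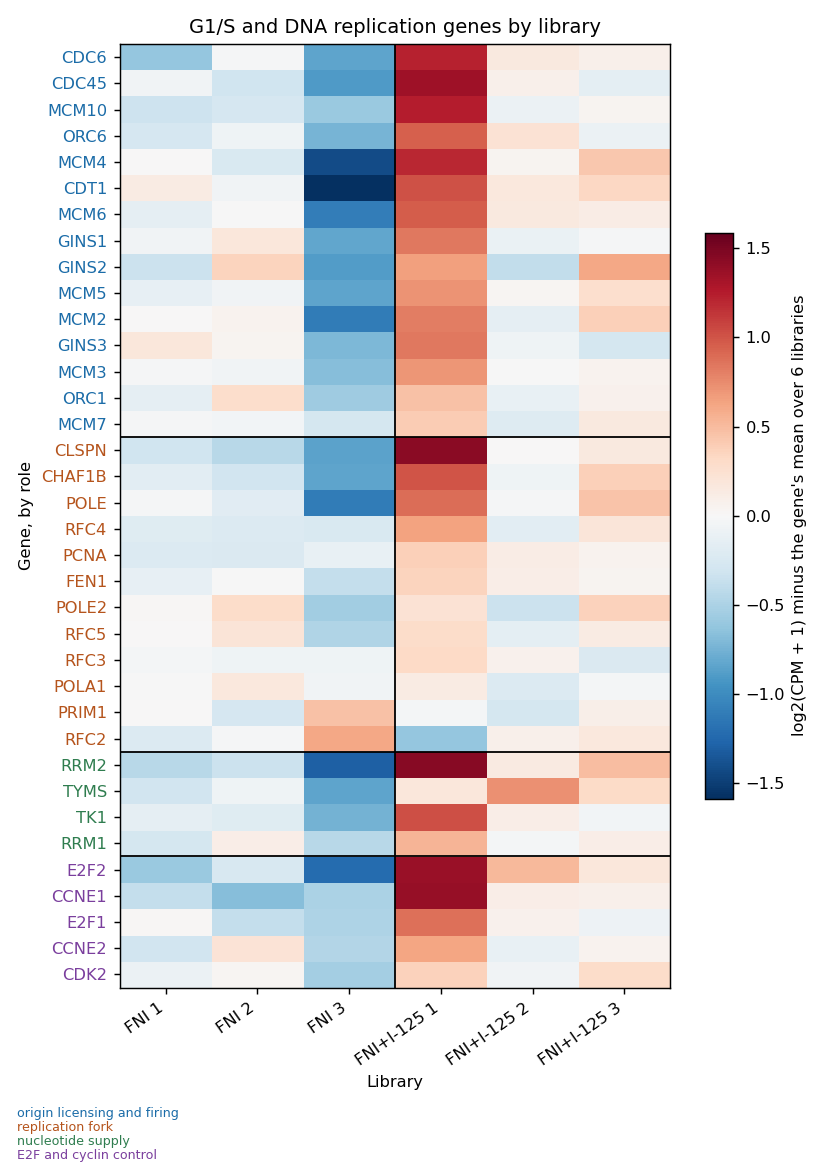
Each row is 1 of the 36 genes, grouped by role (label colour), and each column 1 library, with the colour giving log2(CPM + 1) minus the gene's own mean over the 6 libraries. FNI replicate 3 is the lowest library for 30 genes and FNI+I-125 replicate 1 the highest for 31.

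**Figure D2:**
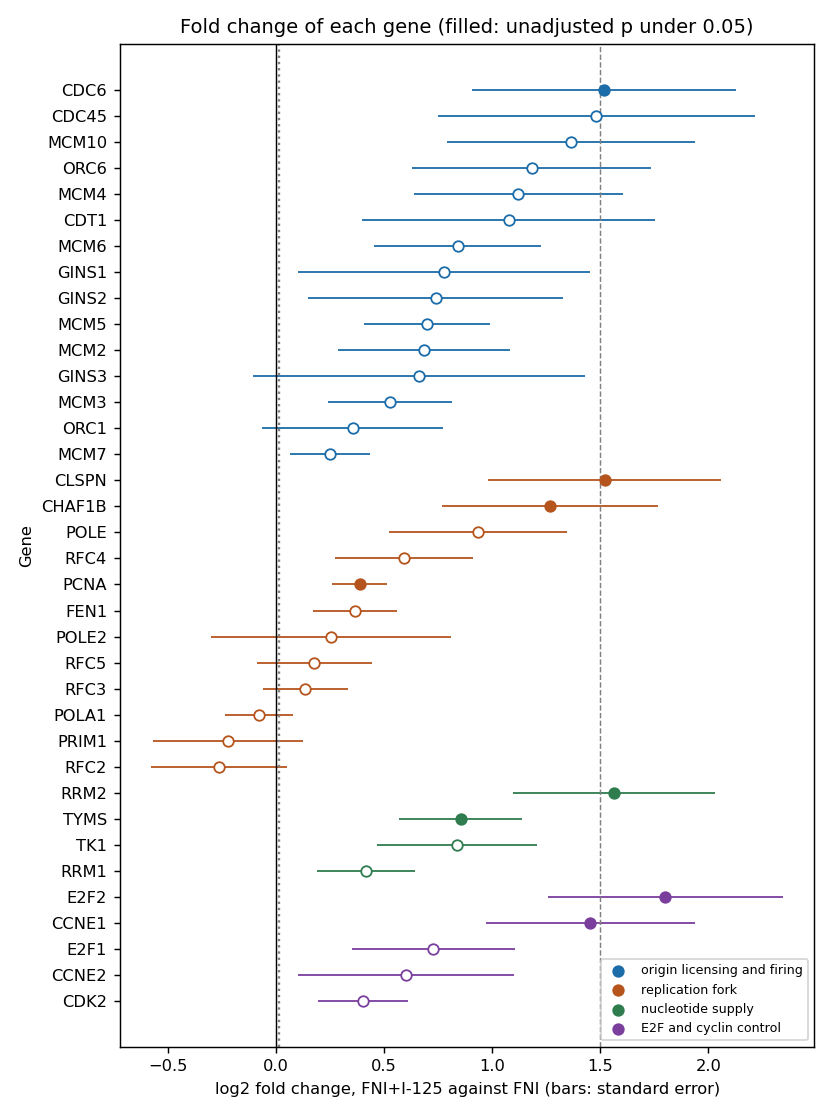
Points give the log2 fold change of each gene in FNI+I-125 against FNI and bars its standard error, with 3 libraries per group. The solid line marks 0, the dotted line the median of all genes tested and the dashed line the criterion of 1.5. Points lie to the right of 0 for 33 of 36 genes, and the 8 filled ones had an unadjusted p under 0.05.

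All 15 genes of origin licensing and firing had a positive log2 fold change, from 0.25 to 1.52, and 1 of them, CDC6, was among the 8 at the unadjusted p. CDC6 is the loader that brings the MCM helicase to the origin recognition complex. In replicates 1, 2 and 3 it was counted 17, 32 and 12 times in the FNI group, and 93, 39 and 38 times with the seed. Its levels were 0.99, 2.01 and 0.71 CPM against 6.07, 2.37 and 2.23 CPM, so the groups did not overlap, though FNI+I-125 replicates 2 and 3 lay close above FNI replicate 2. The log2 fold change of CDC6 was 1.52 (SE 0.61, edgeR adjusted p = 0.292), and without FNI+I-125 replicate 1 it was 0.89. CDT1, its partner in loading, stood at 4.80, 4.09 and 0.77 CPM against 9.73, 4.99 and 5.69 CPM. FNI replicate 3, with 13 counts, held the lowest value by a wide margin, and the other FNI libraries came close to FNI+I-125 replicate 2. The log2 fold change of CDT1 was 1.08 (SE 0.68), and without FNI replicate 3 it was 0.59. Geminin (GMNN), the protein that holds CDT1 back outside G1, stood at 6.38, 7.11 and 6.49 CPM against 9.79, 6.75 and 6.80 CPM, with overlap between the groups. Within a library, log2(CPM + 1) of CDT1 minus that of GMNN was -0.35, -0.67 and -2.08 in the FNI group and -0.01, -0.37 and -0.22 with the seed, and these differences overlapped as well.

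The MCM2 to MCM7 subunits form the ring that unwinds DNA at the fork and are needed in equal number. Their summed level was 165 CPM in both FNI replicates 1 and 2 and 98.0 CPM in FNI replicate 3. In FNI+I-125 replicates 1, 2 and 3 it was 292, 164 and 201 CPM. FNI+I-125 replicate 2 thus lay level with the FNI libraries 1 and 2, and the sums overlapped, at 143 ± 38.7 CPM against 219 ± 65.9 CPM (SD, n = 3 each). The subunits differed in the size of the difference. MCM4 had the largest log2 fold change of the ring, 1.12 (SE 0.48), with 20.5, 17.1 and 7.03 CPM against 48.1, 21.0 and 27.9 CPM. MCM6 followed at 0.84 (SE 0.39), with 22.9, 25.0 and 11.3 CPM against 50.2, 28.3 and 27.6 CPM. MCM5 stood at 19.1, 20.3 and 11.4 CPM against 35.1, 21.6 and 25.6 CPM, a log2 fold change of 0.70 (SE 0.29). MCM3 was at 0.53 (SE 0.29). These 4 subunits did not overlap between the groups, although the margin of MCM3 was 21.9 CPM in FNI+I-125 replicate 2 against 21.6 CPM in FNI replicate 1. MCM2 and MCM7 overlapped. MCM2 stood at 32.0, 33.2 and 14.2 CPM against 57.1, 28.8 and 42.0 CPM, a log2 fold change of 0.69 (SE 0.40). MCM7 had the smallest difference of the ring, with 49.0, 48.3 and 40.7 CPM against 65.7, 42.9 and 55.3 CPM and a log2 fold change of 0.25 (SE 0.19).

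The factors that turn the loaded ring into a moving helicase were counted on fewer reads. MCM10, which joins at firing, had 24, 24 and 17 counts against 95, 30 and 36 counts. This was 1.40, 1.51 and 1.00 CPM against 6.20, 1.82 and 2.11 CPM, a log2 fold change of 1.37 (SE 0.57). The groups of MCM10 did not overlap, and without FNI+I-125 replicate 1 the log2 fold change was 0.59. CDC45, the partner of the ring and GINS in the active helicase, had 28, 19 and 8 counts against 91, 31 and 25 counts. At 1.47 CPM, FNI+I-125 replicate 3 lay below FNI replicate 1 at 1.64 CPM, and the log2 fold change of CDC45 was 1.48 (SE 0.73). Without FNI+I-125 replicate 1 it was 0.60, and without that library and FNI replicate 3 it was 0.23. The GINS subunits overlapped between the groups, and their log2 fold changes were 0.78 for GINS1, 0.74 for GINS2 and 0.66 for GINS3, with standard errors of 0.68, 0.59 and 0.77. GINS3 had the lowest count of the whole set, 5 in FNI replicate 3, and had 24 and 19 in the other FNI nerves against 43, 17 and 13 with the seed. GINS1 had 24, 29 and 7 counts against 53, 22 and 25, and GINS2 had 37, 66 and 20 against 81, 34 and 88. In GINS1 and GINS3 the libraries of FNI+I-125 replicates 2 and 3 lay among those of FNI replicates 1 and 2 or below. Of the origin recognition complex, ORC6 was at a log2 fold change of 1.18 (SE 0.55), with 1.29, 1.64 and 0.65 CPM against 4.31, 2.25 and 1.58 CPM. ORC1, its largest and cell cycle regulated subunit, was at 0.35 (SE 0.42), with 2.40, 3.52 and 1.54 CPM against 4.18, 2.43 and 2.93 CPM. Both overlapped between the groups.

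At the fork, 9 of 12 listed genes had a positive log2 fold change, and the median was 0.31, beside 0.78 for the licensing and firing genes, a difference that was not tested. PCNA, the clamp that tethers polymerases to DNA, was measured on many reads, with little spread among the FNI libraries. It was counted 761, 706 and 810 times in FNI nerves, and 1041, 934 and 926 times with the seed. This was 44.5, 44.4 and 47.8 CPM against 68.0, 56.8 and 54.3 CPM, with no overlap and with FNI replicate 3 at the top of its group. The log2 fold change of PCNA was 0.39 (SE 0.13, edgeR adjusted p = 0.280), a fold of 1.31. CLSPN encodes claspin, which relays stalled forks to the checkpoint kinase CHEK1. It stood at 2.75, 2.45 and 1.59 CPM against 11.6, 3.71 and 4.22 CPM, with no overlap. The log2 fold change of CLSPN was 1.52 (SE 0.54, edgeR adjusted p = 0.280) with all libraries and 0.81 without FNI+I-125 replicate 1. CHAF1B, a subunit of the chromatin assembly factor that places histones on new DNA, stood at 2.11, 1.83 and 0.95 CPM against 5.94, 2.31 and 3.52 CPM. There was no overlap, and the log2 fold change came to 1.27 (SE 0.50, edgeR adjusted p = 0.287) and to 0.84 without FNI+I-125 replicate 1.

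The polymerase genes differed among themselves. POLE, the catalytic subunit of the leading-strand polymerase, had a log2 fold change of 0.93 (SE 0.41). Its levels were 9.65, 8.56 and 4.01 CPM against 19.0, 9.67 and 13.8 CPM, so FNI+I-125 replicate 2 lay just above FNI replicate 1. POLE2, its accessory subunit, was at 0.26 (SE 0.56) and overlapped, with 25, 31 and 11 counts against 28, 15 and 36. Of the priming polymerase, the set held 2 subunits, and neither lay higher with the seed. POLA1, the catalytic subunit, stood at 20.5, 23.3 and 19.8 CPM against 22.5, 17.5 and 20.2 CPM, a log2 fold change of -0.08 (SE 0.16), and PRIM1, the primase, was at -0.22 (SE 0.34), with 3.33, 2.58 and 4.96 CPM against 3.20, 2.55 and 3.58 CPM. Both overlapped between the groups. The other subunits of this polymerase, outside the set, also overlapped, with log2 fold changes of 0.30 for POLA2 (SE 0.27) and 0.28 for PRIM2 (SE 0.21). The small subunits of the clamp loader, RFC2 to RFC5, summed to 54.8 ± 8.27 CPM in the FNI group and 53.5 ± 2.53 CPM in the FNI+I-125 group (SD, n = 3 each). The large subunit RFC1, outside the set, stood at 61.1, 65.3 and 68.2 CPM against 79.5, 70.5 and 66.9 CPM, a log2 fold change of 0.16 (SE 0.12), with overlap. Among the small subunits, RFC4 stood at 3.39, 3.34 and 3.25 CPM against 6.86, 3.47 and 4.75 CPM without overlap, and its log2 fold change was 0.59 (SE 0.32). RFC5 was at 0.18 and RFC3 at 0.14, and RFC2 was at -0.26, with standard errors of 0.27, 0.20 and 0.31, and all 3 overlapped. RFC2 was highest in FNI replicate 3, at 43.1 CPM, and lowest in FNI+I-125 replicate 1, at 17.8 CPM, the reverse of most of the set. FEN1, the nuclease that trims Okazaki fragments, stood at 10.4, 11.5 and 8.62 CPM against 15.0, 12.4 and 11.9 CPM. Its groups did not overlap and its log2 fold change was 0.37 (SE 0.19).

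All 4 genes of nucleotide supply had a positive log2 fold change, and 2 of them, RRM2 and TYMS, were among the 8 at the unadjusted p. RRM2 encodes the small subunit of ribonucleotide reductase, whose level follows S phase. Its counts were 135, 136 and 67 without the seed, and 489, 204 and 274 with it. The level was 6.80 ± 2.49 CPM in the FNI group and 20.1 ± 10.4 CPM in the FNI+I-125 group (SD, n = 3 each), and the lowest FNI+I-125 library, at 12.4 CPM, lay above the highest FNI library, at 8.56 CPM. The log2 fold change of RRM2 was 1.56 (SE 0.47, edgeR adjusted p = 0.280). RRM1, the large subunit, which is present through the cycle, stood at 24.7, 32.4 and 22.0 CPM against 44.0, 29.3 and 32.3 CPM, and its log2 fold change was 0.42 (SE 0.23). Within each library, log2(CPM + 1) of RRM2 minus that of RRM1 was -1.53, -1.81 and -2.21 in the FNI group and -0.45, -1.18 and -0.96 in the FNI+I-125 group, with no overlap. This difference sets 1 gene against another within a library and is read only for its change between libraries, since the levels are not per length.

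TYMS, thymidylate synthase, was the only one of the 8 genes whose highest library was not FNI+I-125 replicate 1. It stood at 9.89, 11.8 and 6.55 CPM in the FNI group and at 14.3, 21.2 and 15.6 CPM in the FNI+I-125 group. Every FNI+I-125 library lay above the FNI libraries, and the log2 fold change of TYMS was 0.85 (SE 0.28, edgeR adjusted p = 0.280). TK1, the salvage kinase for thymidine in dividing cells, stood at 11.5, 11.1 and 7.26 CPM against 27.2, 13.9 and 12.4 CPM. Its groups did not overlap, by a margin of less than 1 CPM, and its log2 fold change was 0.84 (SE 0.37).

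In the control layer, all 5 genes had a positive log2 fold change, and E2F2 and CCNE1 were among the 8. E2F2, an activating E2F, had the largest log2 fold change of the 36 genes. It had 36, 46 and 17 counts against 169, 93 and 73 counts, or 2.11, 2.89 and 1.00 CPM against 11.0, 5.65 and 4.28 CPM. The groups did not overlap, and the log2 fold change of E2F2 was 1.80 (SE 0.54, edgeR adjusted p = 0.280), a fold of 3.48. CCNE1, cyclin E1, stood at 2.93, 2.20 and 2.60 CPM against 12.3, 4.50 and 4.40 CPM. The FNI values of CCNE1 were close together, FNI+I-125 replicates 2 and 3 lay above them, and replicate 1 lay far above. CCNE1 had a log2 fold change of 1.46 (SE 0.49, edgeR adjusted p = 0.280), and without FNI+I-125 replicate 1 it was 0.79. E2F1, CCNE2 and CDK2 overlapped between the groups, with log2 fold changes of 0.73, 0.60 and 0.40 and standard errors of 0.38, 0.50 and 0.21. E2F1, the best known activating E2F, stood at 5.56, 3.96 and 3.60 CPM against 10.9, 5.78 and 5.10 CPM. Within a library, log2(CPM + 1) of E2F1 minus that of E2F2 was 1.08, 0.35 and 1.20 in the FNI group and -0.02, 0.03 and 0.21 with the seed, so E2F2 lay higher relative to E2F1 in each library with a seed. CCNE2, the second cyclin E, stood at 1.11, 2.01 and 0.89 CPM against 3.00, 1.40 and 1.70 CPM, with FNI+I-125 replicates 2 and 3 below FNI replicate 2. The same difference for CCNE1 minus CCNE2 was 0.89, 0.09 and 0.93 in the FNI group and 1.74, 1.20 and 1.00 with the seed. Its lack of overlap rests on the 1 added to these low CPM values. By CPM alone, the ratio of CCNE1 to CCNE2 in FNI+I-125 replicate 3 lay below that in FNI replicates 1 and 3. CDK2, the kinase that cyclin E activates, stood at 27.9, 30.6 and 20.3 CPM against 38.7, 28.8 and 36.9 CPM.

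**Figure D3:**
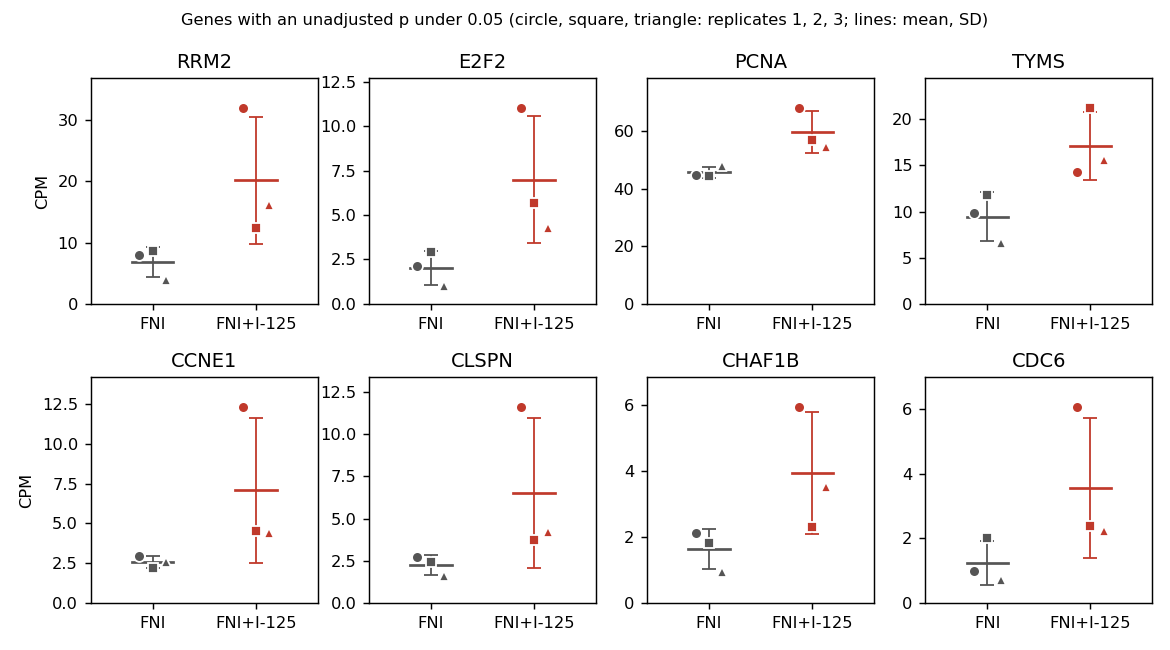
CPM of the 8 genes with an unadjusted p under 0.05, on linear axes from 0, with points for the 3 libraries of each group and lines for mean and SD. In all panels but TYMS the highest point is FNI+I-125 replicate 1, and in no panel do the groups overlap.

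Genes of the same process outside the set were counted from further lists. Of 38 other replication genes tested, 31 had a positive log2 fold change with a median of 0.19. At the unadjusted p 3 were higher, a smaller share than the 9.23% of all genes, and 0 were lower. The 3 were TICRR, which helps fire origins, HELLS, a chromatin remodeller, and LIG1, the ligase that seals Okazaki fragments, at log2 fold changes of 2.45, 1.02 and 0.51 with standard errors of 0.69, 0.30 and 0.16. Of 13 other nucleotide genes, 7 were positive and 6 negative, and 0 passed the unadjusted p in either direction. The smallest p-values there were those of TK2, SAMHD1 and CAD, at log2 fold changes of 0.46, 0.96 and 0.66. Of 18 replication checkpoint and fork repair genes, 12 were positive and 4 were higher at the unadjusted p, against 9.23% of all genes. Among the 4 were HUS1, part of a checkpoint clamp, and the checkpoint kinase CHEK2, at log2 fold changes of 0.42 and 1.24. edgeR's adjusted p was 0.280 for these 2 and for TICRR, HELLS and LIG1.

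Among 29 other G1/S control genes, 21 were positive, 5 were higher and 1 was lower at the unadjusted p. Over all genes tested, 9.23% were higher and 7.73% lower at that level. CDKN1A encodes p21, the inhibitor of cyclin E and CDK2 that p53 induces. It stood at 41.7, 59.5 and 44.4 CPM in the FNI group and at 106, 389 and 186 CPM in the FNI+I-125 group. Every FNI+I-125 library lay above every FNI library, and the log2 fold change of CDKN1A was 2.23 (SE 0.49, edgeR adjusted p = 0.280). Within the FNI+I-125 group CDKN1A was highest in replicate 2 and lowest in replicate 1, while the mean log2(CPM + 1) of the 36 replication genes was 3.84, 3.13 and 3.26 in replicates 1, 2 and 3. In the FNI group both CDKN1A and that mean were highest in replicate 2, and a relation between them was not tested. E2F3, another activating E2F, was at a log2 fold change of 0.88 (SE 0.25), and TFDP2, a dimer partner of E2F, was the gene that was lower, at -0.59 (SE 0.15). RB1, the retinoblastoma gene, was at -0.15 (SE 0.22), with 26.1, 28.6 and 43.3 CPM against 30.7, 27.7 and 30.2 CPM. CCND1 was not analysed here.

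Markers of later cycle phases and of cell types differed between the same libraries. Of 20 markers of G2/M and proliferation, 19 had a positive log2 fold change, with a median of 1.34, and 16 were higher at the unadjusted p. Over all genes tested, 51.1% were positive and 9.23% were higher at that level. MKI67, the Ki67 gene, stood at 26.0, 30.0 and 12.8 CPM against 86.1, 38.1 and 59.2 CPM, and TOP2A and CDK1 had log2 fold changes of 0.75 and 1.63. In other rabbits the study reported the opposite direction for Ki67 protein by immunofluorescence, lower in its I-125 group than in its FNI group. The 36 replication genes had a mean log2(CPM + 1) of 2.96, 3.04 and 2.47 in the FNI libraries. By this mean, the order of the libraries was the same for the replication genes and the G2/M markers. It ran from FNI replicate 3 at the bottom to FNI+I-125 replicate 1 at the top. Single markers could differ. AURKB, the G2/M marker with a negative log2 fold change, -1.15 (SE 0.86), was highest in FNI replicate 3. It stood at 5.67, 4.59 and 35.2 CPM against 10.2, 4.86 and 5.51 CPM.

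Cell type markers also differed between the libraries. Of 16 macrophage and myeloid markers, 14 were listed and none was at 0 in any library. Their summed level in the FNI group was 348 to 1364 CPM, lowest in replicate 3, and with the seed it was 1967 to 2685 CPM, lowest in replicate 1. All 13 macrophage markers tested had a positive log2 fold change, 6 of them at the unadjusted p, where 9.23% of all genes were higher. All 14 Schwann cell markers were listed, none at 0 in any library, at 4653 to 39171 CPM against 935 to 4296 CPM in sum. All 14 had a negative log2 fold change, 3 of them at the unadjusted p, where 7.73% of all genes were lower. The highest sum was that of FNI replicate 3 and the lowest that of FNI+I-125 replicate 1, the reverse of the order for replication genes. Neutrophil markers, with 6 of 7 listed and none at 0, ran from 8.38 to 142 CPM against 587 to 1295 CPM, with both extremes in the same libraries. MMP9 made up most of the sum in FNI+I-125 replicates 2 and 3, at 709 and 502 CPM, and it alone did not overlap between the groups. Of the 6 neutrophil markers, 5 had a positive log2 fold change, LCN2 was at -2.61, and 0 passed the unadjusted p. T and NK cell markers, with 11 of 13 listed, ran from 10.1 to 47.3 CPM against 47.9 to 148 CPM, and CD3G, PRF1 and NKG7 were at 0 in 1 library each. B and plasma cell markers, with 7 of 8 listed and MS4A1 at 0 in 1 library, overlapped at 114 to 755 CPM against 586 to 1135 CPM.

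Markers of tissue beside the nerve were detected as well. Skeletal muscle markers, with 21 of 25 listed, summed to 6289 and 7081 CPM in FNI+I-125 replicates 2 and 1 and to between 66.7 and 207 CPM in the other 4 libraries, and MYH4 and MYOT were at 0 in 2 libraries each. Salivary gland markers, with 10 of 15 listed, reached 50244 CPM in FNI replicate 2 and 65.5 to 3445 CPM elsewhere, with LPO and ELF5 at 0 in 2 libraries each. All 9 fibroblast and all 8 endothelial markers were listed, and their sums overlapped, at 69742 to 139429 CPM against 99951 to 191965 CPM and at 2465 to 2983 CPM against 1859 to 2969 CPM. Adipocyte markers, with 5 of 7 listed, did not overlap in sum, at 1601 to 4287 CPM against 1012 to 1472 CPM. None of these 3 lists held a marker at 0. Of the adipocyte markers, ADIPOQ alone did not overlap between the groups, at 1123, 1121 and 1838 CPM against 754, 771 and 780 CPM. LEP, FABP4, CIDEC and LPL each overlapped. Satellite cell markers, with 6 of 8 listed, summed to 10.7 and 18.4 CPM in FNI+I-125 replicates 1 and 2 and to 0.126 to 1.46 CPM elsewhere. MYF5, MYOD1 and MYMX were at 0 in 4 libraries each and MYOG in 3. PAX7 did not overlap between the groups, at 1, 1 and 3 counts against 13, 13 and 11. The part of any of these cell types and tissues in the levels of the replication genes was not tested.

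**Figure D4:**
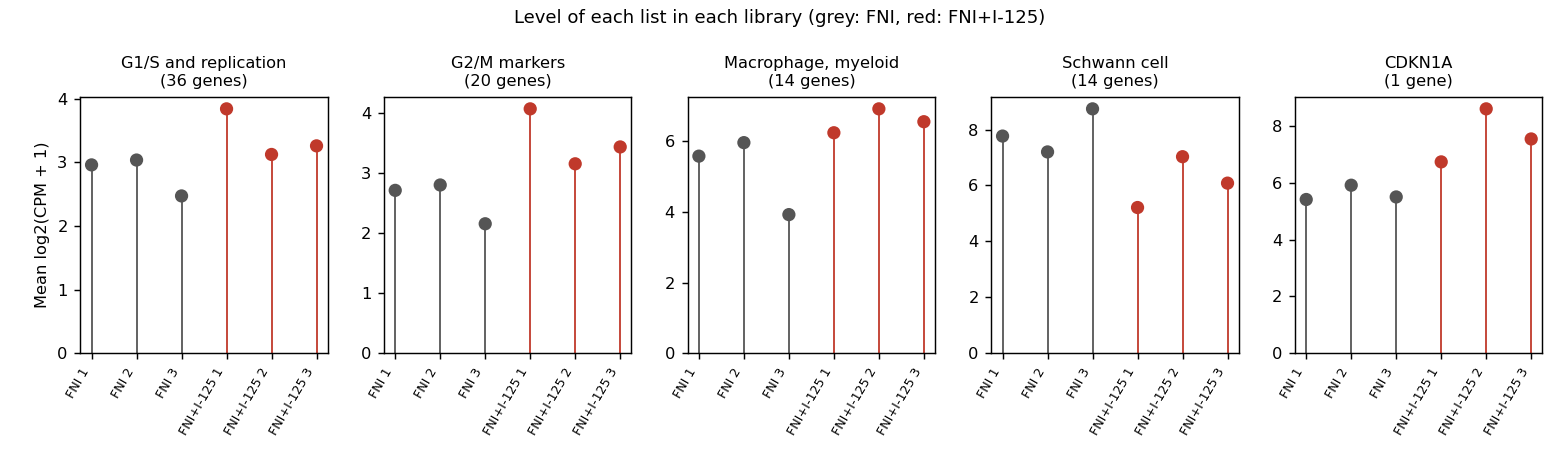
Mean log2(CPM + 1) over the listed genes in each library, with a separate axis from 0 for each panel and CDKN1A as a single gene. The replication genes and the G2/M markers have the same order of libraries, macrophage markers are lowest and Schwann cell markers highest in FNI replicate 3, and CDKN1A is highest in FNI+I-125 replicate 2.

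How far the pattern rests on its most extreme libraries was measured by leaving them out. Without FNI replicate 3 the median log2 fold change of the 36 genes was 0.43, and without FNI+I-125 replicate 1 it was 0.36. Leaving out 1 of the other 4 instead kept it between 0.82 and 0.90. RRM2 was higher at the unadjusted p with each of the 6 libraries left out in turn, at log2 fold changes of 1.07 to 1.79, and E2F2 with each but FNI+I-125 replicate 1 left out, without which it was at 1.31. Without FNI+I-125 replicate 1 the value was also lower for MCM4 at 0.72, ORC6 at 0.68, TK1 at 0.40 and E2F1 at 0.31, and without FNI replicate 3 POLE was at 0.62. Without both FNI replicate 3 and FNI+I-125 replicate 1, a setting chosen after seeing the data, the median was 0.20, with 27 of 36 positive. In that setting 3 genes were higher at the unadjusted p, against 6.44% of all genes: RRM2 at a log2 fold change of 0.77, TYMS at 0.75 and PCNA at 0.31. E2F2 and CCNE1 kept 0.98 and 0.78 without passing it, while GINS3 and GINS1 turned to -0.54 and -0.22. Of the 36 genes, 22 lay in FNI+I-125 replicate 2 above every FNI library, and 23 did so in replicate 3 and 32 in replicate 1. Over all genes tested these shares were 31.2%, 31.9% and 35.7%.

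**Figure D5:**
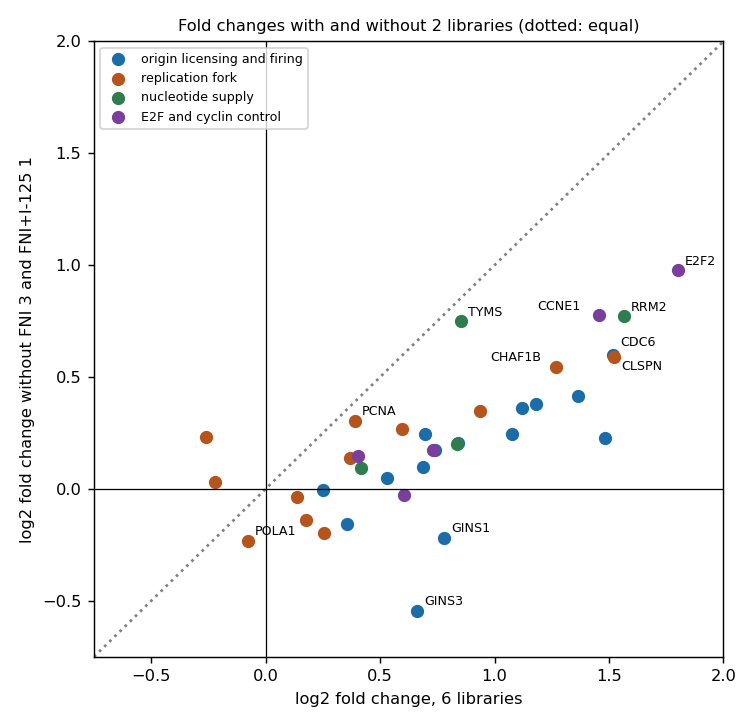
Log2 fold change of each of the 36 genes with all 6 libraries (horizontal) and without FNI replicate 3 and FNI+I-125 replicate 1 (vertical), coloured by role. Most points lie below the dotted line of equality and above 0, with E2F2, RRM2, CCNE1 and TYMS highest and GINS3 lowest.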

How the data were processed

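RNA-seq of 6 facial nerve libraries was analysed, 3 per group. The authors deposited raw counts per gene, 1 file per library, without normalization or pooling. The submitters' processing notes name HISAT2 and the build OryCun2.0; the counting program, its annotation and its strand setting are not given in the sources used here, so reads of overlapping genes may be shared. No coordinates are given, since the gene table used here is of assembly mOryCun1.1. It paired 542 of 2992 LOC numbers with a symbol, none of them a gene of the set.

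The tests used edgeR 4.0.16 under R 4.3.3 (filterByExpr with a minimum count of 10, TMM, glmQLFit and glmQLFTest, two-sided, Benjamini-Hochberg adjustment over all 14003 genes tested). Thresholds were an adjusted p under 0.05 and a |log2 fold change| of 1.5, after the study's methods, and also an unadjusted p under 0.05. At the adjusted thresholds the study reported genes changed in both directions, with a test that its methods do not name. The edgeR test used here called 0% of all genes at them, so the outcomes differ. Standard errors are the log2 fold change divided by the square root of F. DESeq2 1.42.0 and voom from limma 3.58.1 were alternatives, beside other scalings, filters, a replicate block and each library left out. Counts of 0 allow up to 3 counts, and counting error alone is covered by that limit. Fits were tested on simulated data. All genes of the set are named, with the 3 smallest p-values of each further list (1 of these is not reported here) and CDKN1A, RB1, GMNN, MKI67, TOP2A and CDK1. The genes and lists were chosen with earlier results of these data known. P-values measure the spread between the rabbits of each group. The sham group was not analysed here.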

Additional observations from a re-analysis of the deposited data

How the results depend on the processing

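Of the 36 replication genes, 8 were higher at an unadjusted p under 0.05. The count was 13 with DESeq2 (11.5% of all genes), 12 with library size only (9.39%) and 5 with limma-voom (9%). It was 6 with upper-quartile scaling (7.20%), 8 with library sizes without muscle and gland markers (9.26%), 7 with no filter (7.61%), 9 with at least 10 counts in every library (8.91%) and 8 with glmQLFit at legacy = FALSE (9.70%), against 9.23% as reported. With 1 library left out in turn it ran from 2 to 9, the 2 being without FNI replicate 1 and without FNI+I-125 replicate 1, and it was 3 without both FNI replicate 3 and FNI+I-125 replicate 1. The filter of at least 10 counts in every library left out CDC45, GINS1 and GINS3, which had 8, 7 and 5 counts in FNI replicate 3. Calls at the adjusted p and fold criteria were 2 with DESeq2 and 0 in every other setting run, and no gene was lower at the unadjusted p in any. The median log2 fold change, 0.71, ran from 0.66 to 0.72 over the other scalings, tests and filters, from 0.36 (moved by more than the spread between libraries, without FNI+I-125 replicate 1) to 0.90 with 1 library left out, and was 0.20 with both left out. The labels number the libraries 1 to 3 in both groups. The deviations of same-numbered libraries correlated at 0.05, -0.19 and -0.14, within the range of -0.293 to 0.305 for libraries of different number. Deviations from a mean of 3 libraries are tied to each other, so these values cannot tell whether same-numbered rabbits were handled together. The reported fit used no pairing. With a replicate block 9 genes were higher at the unadjusted p (9.03% of all genes) and the median was 0.72. Genes whose groups did not overlap in the higher direction numbered 13 with upper-quartile scaling (11.9% of all genes), 15 with library size only (14.1%) and 17 with DESeq2's size factors (14%), against 18 (14.8%). Without both libraries they numbered 19 (24.1%), and 2 did not overlap in the lower direction (21.6%).

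Signs turned in 10 of the 36 genes. Over the fits without 1 library, log2 fold changes ran from -0.102 to 1.03 for GINS3, from -0.0997 to 0.609 for POLE2, from -0.416 to 0.0507 for PRIM1, from -0.429 to 0.0154 for RFC2, from -0.0163 to 0.265 for RFC3, from -0.0293 to 0.349 for RFC5 and, outside the set, from -0.288 to 0.0886 for RB1. The turned values of GINS3 and RFC3 were without FNI+I-125 replicate 1 and the others without FNI replicate 3. Without both libraries the values that turned were -0.00436 for MCM7, -0.218 for GINS1, -0.544 for GINS3, -0.158 for ORC1, -0.195 for POLE2, 0.0322 for PRIM1, 0.232 for RFC2, -0.0360 for RFC3, -0.141 for RFC5, -0.0265 for CCNE2, 0.0628 for RB1 and -0.00845 for GMNN. The causes were not tested.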
